A study of Sus scrofa with 15 samples.

Results

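Milk fat is built in the mammary epithelial cell from glycerol, fatty acids and membrane lipids, and the expression of 5 enzymes of these pathways was followed in the sow mammary gland from late pregnancy into the first day of lactation. The 5 genes are GK (glycerol kinase), GPAT4 (glycerol-3-phosphate acyltransferase 4), DGKA (diacylglycerol kinase alpha), ACACB (acetyl-CoA carboxylase beta) and SGMS1 (sphingomyelin synthase 1). They were fixed as a list of Ensembl identifiers, with earlier results of these libraries known, and are 5 of the 25322 genes counted. All 5 passed the filter on low counts, by which 13503 genes were tested. Tissue came from biopsies of 3 crossbred sows (Danish Landrace × Yorkshire) in parity 2 that had been chosen for a high colostrum yield, taken 14, 10, 6 and 2 d prepartum and 1 d postpartum, so that each of the 5 time points has 3 libraries of the same 3 animals. Each sow was fed another combination of fiber and fat source (alfalfa meal with trioctanoate, sugar beet pulp with palm fatty acid distillate, alfalfa meal with soybean oil), and sow and diet therefore cannot be told apart. By the methods and text of the study, the diets began in late gestation, later than the approximate day of the baseline biopsy, so the start of the diet and the comparisons against the baseline cannot be told apart either. There is no untreated group: 14 d prepartum is the baseline. The labels do not name the animal, and the sow numbers given here rest on matching each library's sum of counts with the study's read table.

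Triacylglycerol, the bulk of milk fat, is made at the endoplasmic reticulum. Glycerol kinase phosphorylates free glycerol to glycerol 3-phosphate, an acyltransferase such as GPAT4 adds the first fatty acid, and after a further acylation and the removal of the phosphate the resulting diacylglycerol receives its last fatty acid. Diacylglycerol kinases such as DGKA work in the opposite sense and return diacylglycerol to phosphatidic acid, which is also a precursor of phospholipids. Acetyl-CoA carboxylases make malonyl-CoA. The alpha form, ACACA, supplies it in the cytosol for fatty acid synthesis, whereas the beta form, ACACB, lies at the mitochondrial outer membrane, where malonyl-CoA restrains the entry of fatty acids for oxidation. Sphingomyelin synthase moves the phosphocholine head group of phosphatidylcholine onto ceramide. Its product, sphingomyelin, is a main lipid of the outer leaflet of the plasma membrane, the membrane that wraps the milk fat globule. SGMS1 acts in the Golgi, and its relative SGMS2 acts largely at the plasma membrane.

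On the build Sscrofa10.2, GK (ENSSSCG00000012202) lies on chromosome X from 28788860 to 28871823 on the plus strand. GPAT4 (ENSSSCG00000007019) lies on chromosome 17 from 12137573 to 12157036 and DGKA (ENSSSCG00000000370) on chromosome 5 from 22811683 to 22835859, both on the plus strand. ACACB (ENSSSCG00000009937) and SGMS1 (ENSSSCG00000010433) share chromosome 14, on the minus strand, from 44154008 to 44271216 and from 107988063 to 108105320. The counts cover exons only, and none of the 5 genes overlapped another annotated gene (0 overlapping genes each). The annotated exon length, which sets how many reads a transcript collects, ran from 2143 bp in SGMS1 through 2532 bp in GPAT4, 3017 bp in DGKA and 5023 bp in GK to 8424 bp in ACACB.

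Total counts per library ran from 10782343 to 19952918 (median 17726719), and the 3 postpartum libraries were among the 4 shallowest. Levels are given as CPM, counts scaled to the size of the library, after TMM scaling, which evens out differences in library composition. Composition shifted as milk protein transcripts came to fill the libraries: the 10 highest genes held between 16.6% and 19.5% of the counts at 14 d prepartum and 30.5%, 33.6% and 53.8% at 1 d postpartum. The highest of these shares belonged to sow 1 (replicate 37), and its TMM factor of 0.545 was the lowest of all. Without TMM the median log2 fold change of all tested genes moved from 0.02 to -0.64 in the +1vs-14 time comparison and from -0.01 to -0.42 in -2vs-14, so the direction of a gene with a small change depends on this scaling. The calls moved with it, from 1799 higher and 1404 lower to 530 higher and 5158 lower in +1vs-14, from 263 and 121 to 160 and 1268 in -2vs-14, and to 382 and 1808 in +1vs-2. Throughout, a gene was called when edgeR gave an adjusted p of at most 0.05 both for the effect of time over all time points and for the comparison itself. This model held time only. Pairing by sow entered in alternatives, whereas the study fitted the animal as a random effect.

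Between 14 d prepartum and 1 d postpartum, 4 of the 5 enzymes were upregulated: GPAT4 (4.81-fold), ACACB (3.67-fold), GK (2.96-fold) and DGKA (1.74-fold). In the same comparison 23.7% of all tested genes were called, 13.3% higher and 10.4% lower. SGMS1 took another course. No change passed the test between 6 and 2 d prepartum (-2vs-6 0.05, SE 0.16, adjusted p = 0.963), and it fell 1.91-fold from 2 d prepartum to 1 d postpartum, one of 3 members called in +1vs-2 beside GPAT4 and ACACB, which rose (background 15.2% of tested genes called, 8.01% higher and 7.24% lower). Before parturition, GPAT4 was called in -2vs-14, where 2.84% of tested genes were called (1.95% higher, 0.896% lower). With the sow as a block DGKA (adjusted p = 0.0294) and SGMS1 (adjusted p = 0.0268) were called there too, among 1172 of all tested genes against 384 without the block. Leaving out 1 library moved the 384 to between 37 (without replicate 4) and 573 (without replicate 34). The overall effect of time passed the threshold for all 5 members, as it did for 25.8% of all tested genes, with an adjusted p of 0.000131 for GPAT4, 0.00271 for SGMS1, 0.00879 for DGKA, 0.0128 for ACACB and 0.0170 for GK. The RNA integrity number recorded for the libraries was lowest in the 3 baseline libraries, and with it as a covariate no member was called against 14 d prepartum (76 of all tested genes in +1vs-14), while GPAT4 and SGMS1 kept their calls in +1vs-2.

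**Figure D1:**
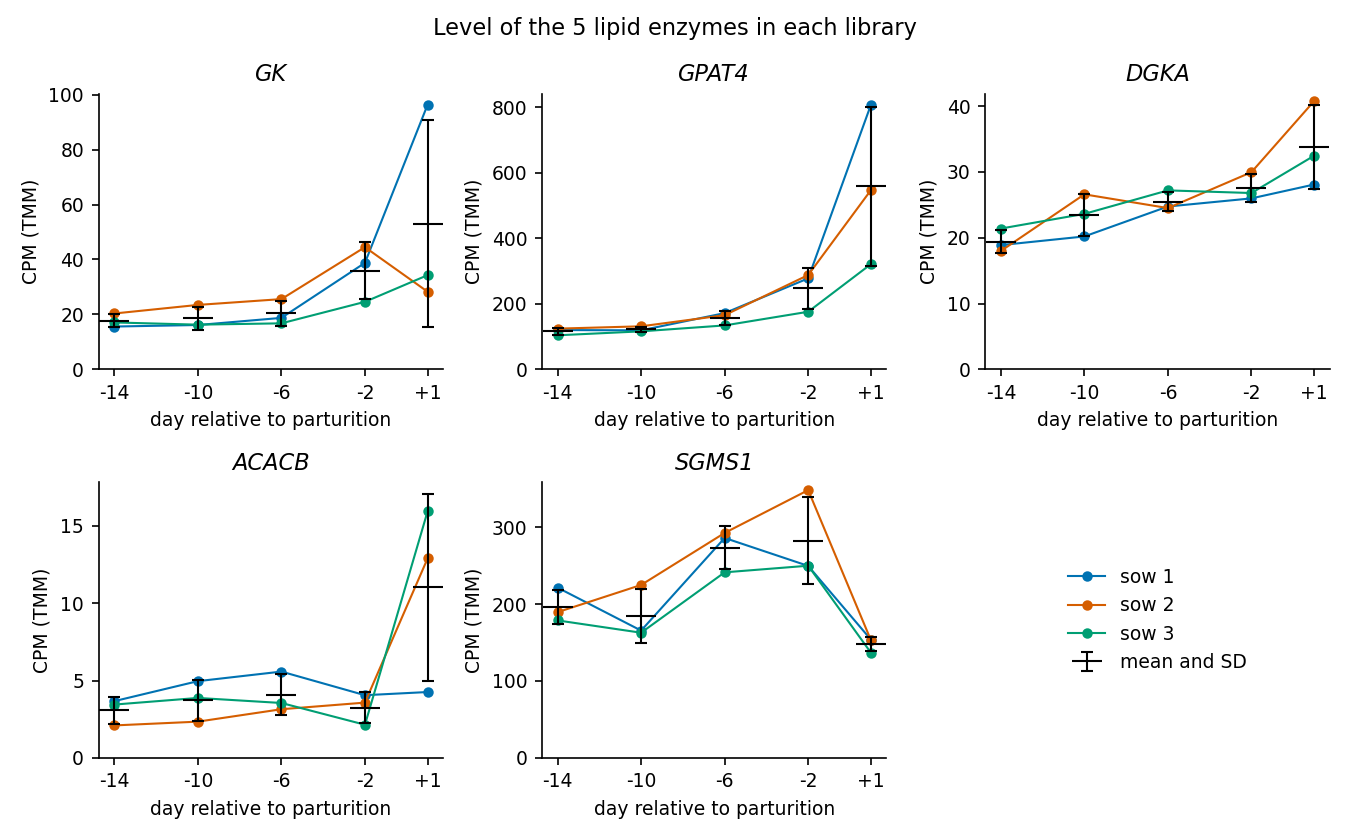
Level of each enzyme (vertical axis, CPM after TMM scaling) by day relative to parturition (horizontal axis). Coloured lines join the 5 libraries of a sow, black bars are the mean and SD of 3 libraries. GPAT4 is higher in each sow at each step from 10 d prepartum, ACACB is high only in sows 2 and 3 at 1 d postpartum, GK is highest in sow 1 at that time, and SGMS1 drops in all 3 sows after parturition.

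GK, which makes the glycerol 3-phosphate backbone, was flat until 6 d prepartum. Its level in sows 1, 2 and 3 was 15.6, 20.3 and 17.1 CPM at 14 d prepartum, 16.1, 23.5 and 16.3 at 10 d and 18.7, 25.6 and 16.8 at 6 d prepartum. It then reached 38.8, 44.5 and 24.6 CPM at 2 d prepartum, and 96.3, 28.3 and 34.3 at 1 d postpartum. At both last time points the 3 libraries lay above all 3 of the baseline. The sows parted after parturition: against 2 d prepartum GK was higher in sows 1 and 3, by up to 1.31 on the log2 scale, and lower in sow 2, with a difference of -0.65.

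For GK the log2 fold change was 1.03 (SE 0.38, adjusted p = 0.146) in -2vs-14, which missed the threshold, and 1.57 (SE 0.39, adjusted p = 0.00757) in +1vs-14, which passed it. Replicate 37 carried much of the postpartum value. Without it the log2 fold change of GK in +1vs-14 was 0.81 (adjusted p = 0.0242), still called. The step from 2 d prepartum to 1 d postpartum, 0.54 (SE 0.38, adjusted p = 0.364), turned to -0.21 without that library. With only the 6 libraries of the comparison in the fit, GK was called in -2vs-14 (adjusted p = 0.0429) and no longer in +1vs-14 (adjusted p = 0.0530).

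GPAT4, which attaches the first fatty acid to the backbone, had the highest fold change of the 5. Its mean was 116 ± 10.7 CPM (SD, n = 3) at the baseline and 558 ± 243 CPM after parturition. In sows 1, 2 and 3 it stood at 119.9, 124 and 104 CPM at 14 d prepartum and at 119, 131 and 116 CPM at 10 d. It then read 172, 165 and 134 CPM at 6 d prepartum, 278, 288 and 176 at 2 d prepartum, and 807, 546 and 321 at 1 d postpartum. All 3 libraries lay above the baseline from 6 d prepartum on. Each sow was higher at each step from 10 d prepartum, by 0.21 to 0.53 on the log2 scale to 6 d, by 0.39 to 0.80 to 2 d prepartum and by 0.87 to 1.54 to 1 d postpartum. Sow 3 was the lowest at every time point.

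The log2 fold change of GPAT4 was 1.09 (SE 0.26, adjusted p = 0.0449) in -2vs-14, 2.27 (SE 0.27, adjusted p = 7.99e-05) in +1vs-14 and 1.17 (SE 0.26, adjusted p = 0.00810) in +1vs-2. The first of these lay close to the threshold. It was lost when any of replicates 1, 4, 7, 28 or 31 was left out (log2 fold change 0.96 to 1.14, adjusted p 0.0976 to 0.187) and kept without replicate 34 (1.29, adjusted p = 0.0217), while with the sow as a block its adjusted p was 0.00715. The other calls held in all 6 such fits. GPAT4 ranked 278th of 13503 tested genes by log2 fold change in +1vs-14.

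DGKA, which turns diacylglycerol back into phosphatidic acid, was the member with the smallest upregulation. It stood at 18.9, 18.0 and 21.4 CPM in sows 1, 2 and 3 at 14 d prepartum, 20.2, 26.6 and 23.6 at 10 d and 24.7, 24.5 and 27.2 at 6 d prepartum. At 2 d prepartum it read 26.0, 30.0 and 26.8 CPM, and at 1 d postpartum 28.1, 40.8 and 32.5. From 6 d prepartum on all 3 libraries were above the baseline, and unlike GK and GPAT4 the postpartum level was lowest in sow 1. The log2 fold change of DGKA was 0.51 (SE 0.14, adjusted p = 0.0716) in -2vs-14 and 0.80 (SE 0.14, adjusted p = 0.000992) in +1vs-14, and that call held in all 6 fits with a library left out. With the sow as a block DGKA was also called in -2vs-14 (0.50, adjusted p = 0.0294). Without TMM its change in +1vs-14 was 0.18 (adjusted p = 0.517) and not called, against a median of -0.64 over all tested genes.

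ACACB, the mitochondrial form of acetyl-CoA carboxylase, was the lowest of the 5 and had no prepartum change that passed the test. Its level was 3.67, 2.10 and 3.44 CPM in sows 1, 2 and 3 at 14 d prepartum, 4.96, 2.34 and 3.87 at 10 d and 5.58, 3.14 and 3.55 at 6 d. It was 4.05, 3.57 and 2.14 CPM at 2 d prepartum and 4.26, 12.9 and 15.9 at 1 d postpartum. The rise thus lay in sows 2 and 3. In sow 1 the postpartum level was under its own level at 10 and 6 d prepartum, although above the 3 baseline libraries. Counts behind these values were low, from 25 reads in replicate 37 to 218 reads in replicate 43.

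In +1vs-14 the log2 fold change of ACACB was 1.88 (SE 0.43, adjusted p = 0.00491), and in +1vs-2 it was 1.78 (SE 0.44, adjusted p = 0.0126). Both calls leaned on sows 2 and 3. Without replicate 40 the value in +1vs-14 was 1.77 and without replicate 43 it was 1.52, in both cases not called because the overall test of time was then missed, and without replicate 37 it grew to 2.22. In +1vs-2 the call was lost without replicate 34 (1.56), 40 (1.67) or 43 (1.42). Neither call held without TMM, where the values were 1.33 and 1.65, and with only 6 libraries in the fit the second was lost (1.78, adjusted p = 0.0865).

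SGMS1 was the member that was lower after parturition. In sows 1, 2 and 3 it read 221, 189 and 179 CPM at 14 d prepartum and 165, 225 and 163 at 10 d, then 286, 292 and 241 CPM at 6 d and 249.6, 348 and 249.9 at 2 d prepartum. At 1 d postpartum it was 154, 153 and 137 CPM. All 3 libraries were above the baseline at 6 and 2 d prepartum and all 3 were below it at 1 d postpartum, and between 10 and 6 d prepartum each sow gained 0.38 to 0.79 on the log2 scale. The postpartum libraries spread less than at any other time point (SD 9.65 CPM around a mean of 148).

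The fall of SGMS1 in +1vs-2 had a log2 fold change of -0.93 (SE 0.16, adjusted p = 0.00172) and held in all 6 fits with a library left out, from -1.01 to -0.77. Against the baseline the changes were smaller and missed the threshold, at 0.52 (SE 0.16, adjusted p = 0.0881) in -2vs-14 and -0.41 (SE 0.16, adjusted p = 0.0640) in +1vs-14. With the sow as a block both were called (0.51, adjusted p = 0.0268, and -0.41, adjusted p = 0.0210). DESeq2 also called both (adjusted p = 0.0365 and 0.0469). Without TMM, SGMS1 was called in +1vs-14 at -1.07 (adjusted p = 0.000272), against a median of -0.64 over all tested genes, and had 0.11 (adjusted p = 0.628) in -2vs-14. In -6vs-10 the value was 0.57 (SE 0.16) with an unadjusted p of 0.00331 and an adjusted p of 0.513.

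**Figure D2:**
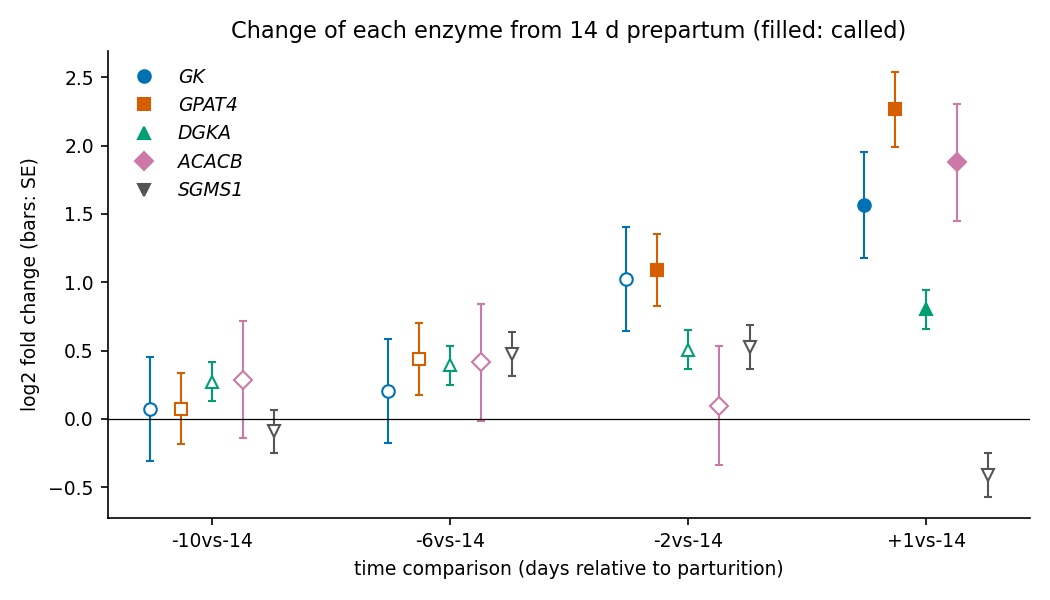
Log2 fold change of each enzyme against 14 d prepartum (vertical axis, bars are SE) in the 4 time comparisons (horizontal axis). Filled symbols are called by edgeR in the model without the sow, open symbols are not. GPAT4 alone is filled at -2vs-14, with 1.09, and SGMS1 is the one value under 0 at +1vs-14, with -0.41.

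The order in which the enzymes left the baseline can be read in 2 ways. By levels, 3 of the 5 members (GPAT4, DGKA and SGMS1) had all libraries above those of 14 d prepartum at 6 d prepartum, where this held for 9.95% of all tested genes. GK joined them at 2 d prepartum, making 4 members (15.2% of tested genes), and ACACB at 1 d postpartum. At that last time point GK, GPAT4, DGKA and ACACB lay above the baseline (19.5% of tested genes) and SGMS1 below it (19.4%). By the test, no member was called before 2 d prepartum. In -10vs-14 and -6vs-14 no gene of the 13503 was called by edgeR (0% in each), with 296 and 1189 genes whose p before adjustment was at most 0.05, and DESeq2 called 0 and 122. Among neighbouring time points edgeR called 0% of tested genes in -6vs-10 (953 with a p before adjustment of at most 0.05, 28 called by DESeq2) and 0.00741%, or 1 gene, in -2vs-6 (1078 and 44), and no member in either. None of the 18 alternatives run for each of these 4 comparisons called a member.

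Read as log2 fold changes against the baseline, DGKA stood at 0.27, 0.39, 0.51 and 0.80, from the first later time point (10 d prepartum) to the last (1 d postpartum). GPAT4 had 0.07, 0.44, 1.09 and 2.27 in the same order, and GK had 0.07, 0.20, 1.03 and 1.57, of which the last was 0.81 without replicate 37. ACACB had 0.29, 0.42, 0.10 and 1.88. Differences in timing between the genes were not tested.

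Levels can be compared between genes only per length. At 14 d prepartum SGMS1 was the highest with 91.7 ± 10.3 CPM per kb of exon (SD, n = 3), followed by GPAT4 with 45.8 ± 4.23, DGKA with 6.44 ± 0.586, GK with 3.52 ± 0.484 and ACACB with 0.364 ± 0.101. None of these neighbours overlapped between libraries. The order was the same at 10, 6 and 2 d prepartum, except that at 2 d prepartum DGKA (9.14 ± 0.697 CPM per kb) and GK (7.16 ± 2.04) overlapped. At 1 d postpartum GPAT4 (220.4 ± 96.0 CPM per kb) stood above SGMS1 (69.1 ± 4.50) with no overlap, DGKA (11.2 ± 2.13) and GK (10.5 ± 7.50) did not differ beyond their spread, and ACACB (1.31 ± 0.719) was still the lowest.

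Pearson correlations between the members are a description: the 15 libraries are repeated biopsies of 3 animals, they share the change with time and the TMM scaling, and no p is given. GK and GPAT4, which act in sequence, had the highest r of the 10 pairs, 0.88 over the 15 libraries (Spearman's rho 0.86) and 0.92 over the 12 prepartum libraries. Once the mean of each time point was taken away, r was still 0.75, so that a library high in GK for its day tended to be high in GPAT4. Without the 2 libraries farthest from the median of GK, r was 0.79, and without TMM it was 0.72. Within a sow, over 5 libraries each, r was 0.99, 0.58 and 0.97 in sows 1, 2 and 3, and in sow 2 the last step, across parturition, was downward for GK and upward for GPAT4.

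The other pairs varied more between these views. GPAT4 and DGKA had r = 0.74 over 15 libraries but -0.19 for the deviations from time point means, and GK and DGKA had 0.51 and -0.41. Without TMM, r over the 15 libraries was -0.10 for GPAT4 and DGKA and -0.50 for GK and DGKA, so these positive values depend on the scaling. SGMS1 followed the glycerolipid enzymes before parturition, with r over the 12 prepartum libraries of 0.79 with GPAT4, 0.69 with GK and 0.67 with DGKA. Over all 15 libraries these values were -0.23, -0.05 and -0.09, and without TMM they were -0.70, -0.52 and 0.28. At 1 d postpartum all libraries of SGMS1 lay below the baseline, and those of GPAT4, GK and DGKA lay above it. ACACB had r from -0.16 to 0.11 with the other 4 prepartum, and over all libraries its highest r was 0.61 with DGKA and its lowest -0.51 with SGMS1. Against GK its deviations ran the opposite way (r = -0.64), as sow 1 was highest in GK and lowest in ACACB at 1 d postpartum.

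**Figure D3:**
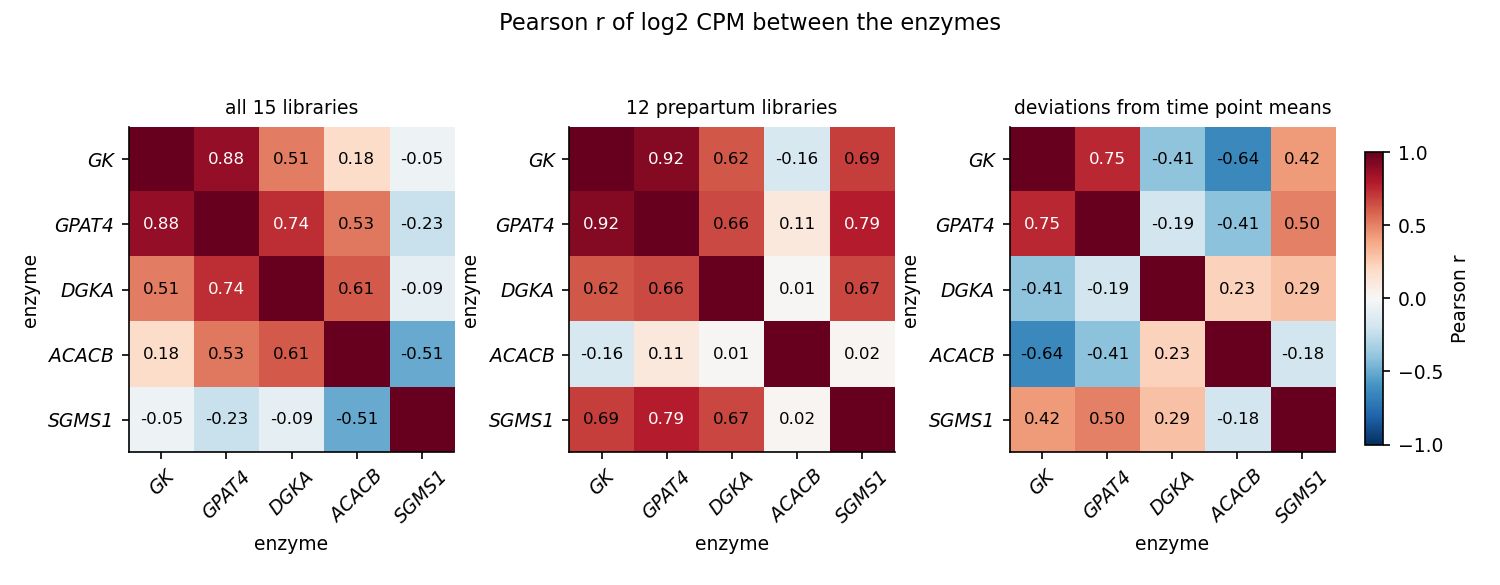
Pearson r of log2 CPM between the 5 enzymes (both axes), over all 15 libraries (left), the 12 prepartum libraries (middle) and the deviations from time point means (right). GK and GPAT4 are positive in all 3 panels (0.88, 0.92 and 0.75), whereas SGMS1 is positive with GPAT4 prepartum (0.79) and negative over all libraries (-0.23).

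The named genes whose log2 CPM was most like that of a member over the 15 libraries, of 9355 ranked, differed from enzyme to enzyme. Because these genes were chosen by r over the same libraries, a pattern of sows shared with the member is no separate result. For GK they were RAB1A, a GTPase of transport from the endoplasmic reticulum to the Golgi (r = 0.99), the aminopeptidase LNPEP (0.99) and DCAF11 (0.98). RAB1A at 1 d postpartum showed the same split as GK, with 649, 325 and 351 CPM in sows 1, 2 and 3. For GPAT4 they were MIA3, SERP1 and SEC61A1, all of the early secretory pathway (r = 0.99, 0.98 and 0.98). SEC61A1, a channel subunit for proteins entering the endoplasmic reticulum, went from 10.8, 11.5 and 9.07 CPM at 14 d prepartum to 45.4, 29.5 and 24.9 at 1 d postpartum, the same order of sows as GPAT4 at that time.

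For DGKA the closest genes were KANSL1 (r = 0.97), PIGN (0.94) and TMEM19 (0.92). For ACACB they were C3, the central complement component (r = 0.95), TLN1 (0.94) and DENND2D (0.93). C3 read 93.5, 36.8 and 95.6 CPM at 14 d prepartum and 250.2, 3063 and 2848 at 1 d postpartum, high in the same 2 sows as ACACB. For SGMS1 they were PPTC7 (r = 0.91), the lipid kinase PIK3C2G (0.91) and AIG1 (0.90), each lower at 1 d postpartum than at 14 d prepartum, with a log2 fold change of -0.26, -0.45 and -0.51.

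Relatives from the enzyme families of GPAT4, SGMS1, ACACB and DGKA did not all follow these members. GPAM, the mitochondrial glycerol-3-phosphate acyltransferase, was 530.2, 519 and 490.0 CPM at 14 d prepartum, 924, 1039 and 983 at 2 d prepartum and 901, 517 and 582 at 1 d postpartum. It rose in -2vs-14 (0.94, SE 0.18, adjusted p = 0.0186) and fell in +1vs-2 (-0.56, SE 0.18, adjusted p = 0.0447), whereas GPAT4 rose in both. GPAT3, the other acyltransferase of the endoplasmic reticulum, went from 16.9, 9.52 and 11.2 CPM to 41.2, 41.5 and 33.0 at 1 d postpartum (+1vs-14 1.62, SE 0.27, adjusted p = 0.000628). GPAT4 and GPAT3 thus were higher than the baseline in every sow after parturition, while GPAM was back near it in sows 2 and 3.

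SGMS2, which forms sphingomyelin at the cell surface, was higher than the baseline after parturition, where SGMS1 was lower than at 2 d prepartum. It stood at 11.4, 12.7 and 8.10 CPM at 14 d prepartum, 15.4, 39.0 and 7.68 at 2 d prepartum, and 53.4, 44.1 and 43.8 at 1 d postpartum. Its log2 fold change was 2.13 (SE 0.45, adjusted p = 0.00309) in +1vs-14, and 1.18 (SE 0.44, adjusted p = 0.0816) in +1vs-2, which missed the threshold. SAMD8, the third of this family, was not called in any comparison.

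ACACA, the cytosolic carboxylase of fatty acid synthesis, read 33.2, 34.5 and 44.3 CPM at 14 d prepartum, 105, 112 and 62.1 at 2 d prepartum and 549, 82.2 and 124 at 1 d postpartum. It was called in +1vs-14 (2.75, SE 0.53, adjusted p = 0.00166). Its postpartum level was by far the highest in sow 1, the sow in which ACACB stayed low. Of the other diacylglycerol kinases, DGKZ rose in +1vs-2 (0.55, SE 0.13, adjusted p = 0.0107), and DGKD and DGKQ were not called in any comparison.

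**Figure D4:**
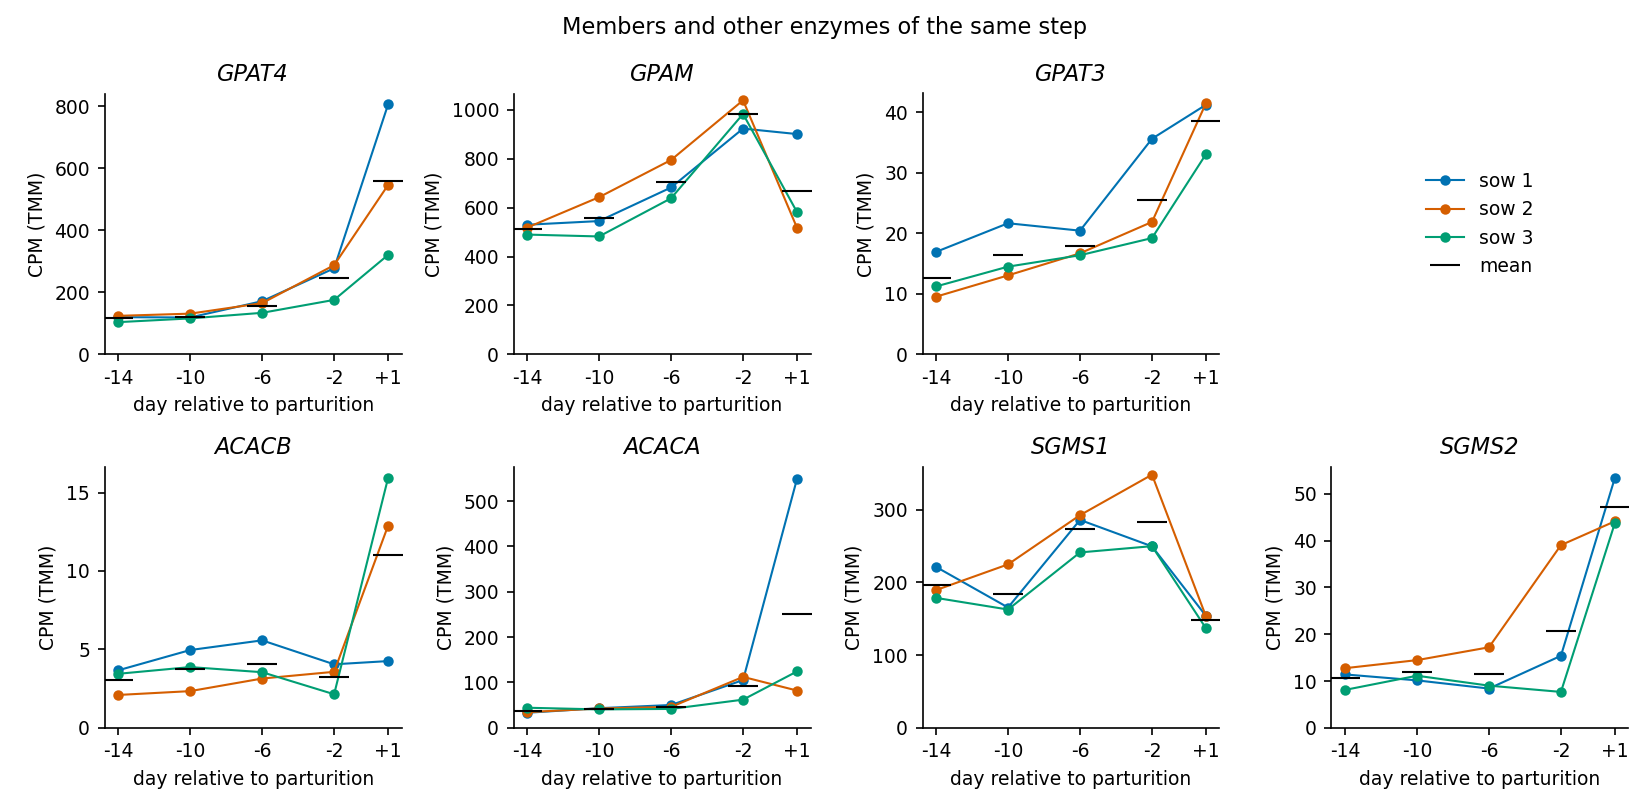
CPM after TMM scaling (vertical axis, own scale in each panel) by day relative to parturition (horizontal axis) of GPAT4, ACACB and SGMS1 beside enzymes of the same step. Coloured lines are sows and black bars are means of 3 libraries. GPAM peaks at 2 d prepartum, ACACA is highest in sow 1 at 1 d postpartum (549 CPM) where ACACB is lowest (4.26 CPM), and SGMS2 lies at 43.8 to 53.4 CPM at 1 d postpartum against 8.10 to 12.7 CPM at 14 d prepartum.

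The wider pathways were read from 9 lists of lipid enzymes, in which 88 tested genes other than the members could be named. In +1vs-14, 25 of the 88 were upregulated and 5 downregulated, that is 28.4% and 5.68% against 13.3% and 10.4% of all tested genes, and the median log2 fold change was 0.30 against 0.02. In -2vs-14, 6 were upregulated and 1 downregulated, or 6.82% and 1.14% against 1.95% and 0.896% (median 0.17 against -0.01). In +1vs-2 the numbers were 12 and 4, or 13.6% and 4.55% against 8.01% and 7.24% (median 0.13 against 0.02). In total 34 of the 88 (38.6%) were called in at least 1 comparison, against 25.2% of all tested genes, and 54 in none. The lists were put together with earlier results of these libraries known, so the counts are a description.

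Beside GK, the glycerol 3-phosphate supply list held 6 tested genes, and a place on it does not mean that a gene makes glycerol 3-phosphate. Of these, the mitochondrial dehydrogenase GPD2 and the glycerol channel AQP9 were upregulated in -2vs-14, and AQP9 in +1vs-14. That is 33.3% and 16.7% of the 6, against 1.95% and 13.3% of all tested genes. GPD2 had a log2 fold change of 0.94 (SE 0.21) in -2vs-14. AQP9 had 3.85 (SE 0.43) in -2vs-14 and 3.29 (SE 0.44) in +1vs-14, from a low level of 0.596, 0.252 and 0.340 CPM at the baseline to 5.03, 7.51 and 4.72 at 2 d prepartum. Of the 6 acyltransferases beside GPAT4, GPAT3 and LCLAT1 (1.29, SE 0.30) were upregulated in +1vs-14, or 33.3% against 13.3% of all tested genes.

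Among 9 tested genes that interconvert phosphatidic acid and diacylglycerol beside DGKA, 2 rose and 1 fell in +1vs-14. That is 22.2% and 11.1%, against 13.3% and 10.4% of all tested genes. The phosphatases LPIN1 (1.30, SE 0.25) and PLPP3 (1.21, SE 0.23), which make diacylglycerol from phosphatidic acid, rose, and the mitochondrial acylglycerol kinase AGK fell (-0.60, SE 0.16). The triacylglycerol list held only 2 tested genes, DGAT1 and BSCL2, and neither was called in any comparison. Both lipases that were called in the breakdown list of 3 rose in +1vs-14, PNPLA2 by 0.84 (SE 0.20) and MGLL by 1.12 (SE 0.12). They are 66.7% of that list, against 13.3% of all tested genes.

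In the phospholipid list 3 of 17 tested genes rose and 3 fell in +1vs-14, 17.6% each way, close to the 13.3% and 10.4% of all tested genes. CDS2 (1.05, SE 0.17), CEPT1 (0.91, SE 0.17) and LPCAT3 (0.69, SE 0.12) rose. CRLS1 (-0.73, SE 0.10) and PTPMT1 (-0.54, SE 0.15), both of cardiolipin synthesis in mitochondria, fell, as did the ethanolamine kinase ETNK2 (-1.21, SE 0.29). CDS2 rose and CRLS1 fell already in -2vs-14 (0.70 and -0.52).

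The list around malonyl-CoA and fatty acids had the highest number of calls. In +1vs-14, 0 of 14 tested genes were down (against 10.4% of all tested genes) and 8 were up (57.1%, against 13.3%). Beside ACACA these were ACLY (1.27, SE 0.31), FASN (1.86, SE 0.52), the desaturases SCD (3.28, SE 0.66), FADS1 (2.13, SE 0.44) and FADS2 (1.20, SE 0.24), ACSS1 (0.56, SE 0.16) and PRKAB1 (0.67, SE 0.16). FASN, the fatty acid synthase, reached 3649 CPM in sow 1 at 1 d postpartum, against 477 and 873 in sows 2 and 3, and 517, 401 and 459.9 at the baseline. SCD had the same split (5098, 519 and 1004 CPM), and ACLY was also highest in sow 1 (228, 71.1 and 96.4 CPM). By contrast, FADS1, FADS2 and ACSS1 were highest in sow 3 at that time, and PRKAB1 in sow 2. Fits with 1 library left out are given for the members only, not for these genes. In sow 2 the postpartum level of FASN lay within the range of the baseline libraries.

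In the ceramide and sphingomyelin list, 5 of 16 tested genes beside SGMS1 rose in +1vs-14 and 1 fell. That is 31.25% and 6.25%, against 13.3% and 10.4% of all tested genes. The ceramide synthase CERS4 (1.55, SE 0.33), the reductase KDSR (0.56, SE 0.17), the ceramide transfer protein CERT1 (1.09, SE 0.30), ORMDL3 (0.95, SE 0.13) and SGMS2 rose. ORMDL1, like ORMDL3 a regulator of serine palmitoyltransferase, fell (-0.62, SE 0.17), and in +1vs-2 it fell together with SGMS1 (-0.92, SE 0.17). CERS4 split between sows as ACACB did, with 31.7, 109 and 73.3 CPM at 1 d postpartum. Of 15 genes of sphingolipid breakdown, SMPD1 (0.76, SE 0.19) and GBA2 (0.49, SE 0.09) rose in +1vs-14, which at 13.3% is the share of all tested genes. SGPP2 was called higher in +1vs-2 (2.04, SE 0.48), with 3.93, 2.60 and 4.58 CPM at 2 d prepartum and 3.06, 15.3 and 26.2 CPM at 1 d postpartum. In sow 1 it was thus lower than before, and lower than the 6.87 to 8.10 CPM of the baseline.

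**Figure D5:**
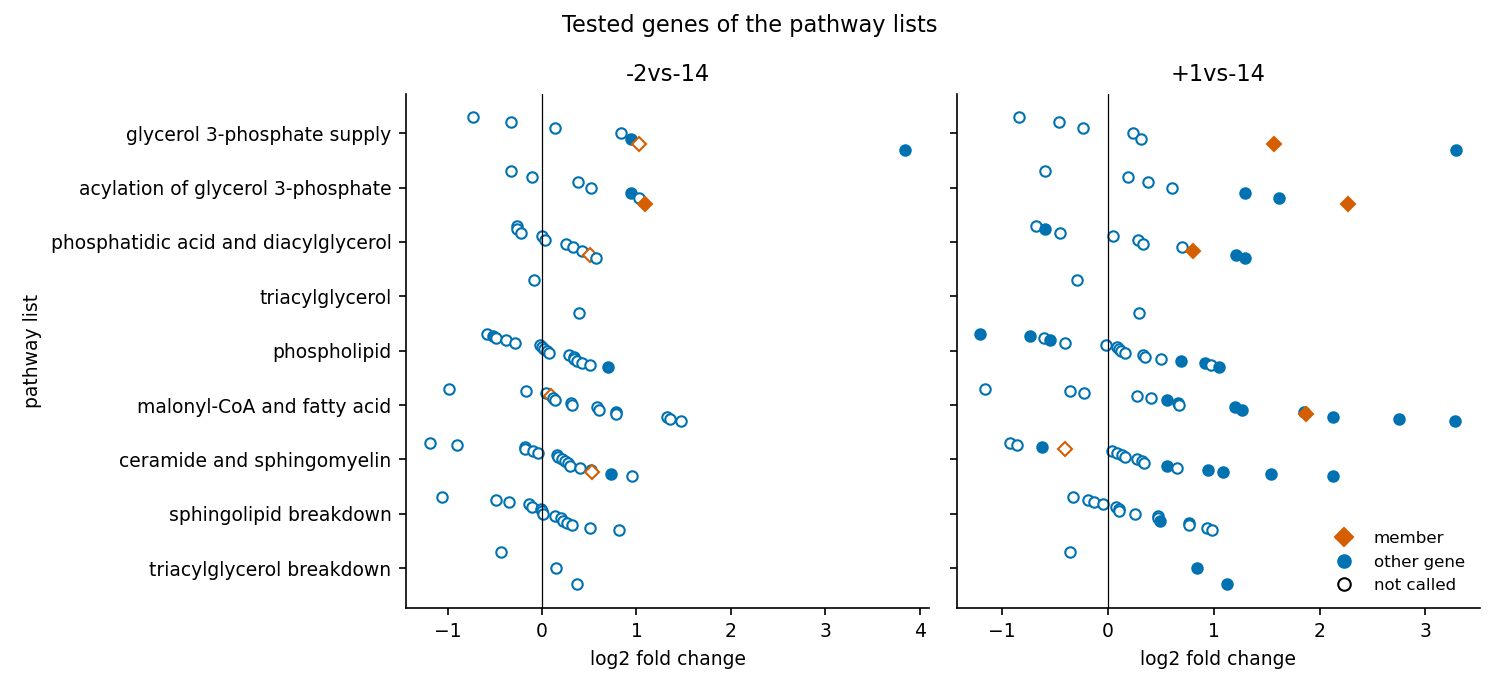
Log2 fold change (horizontal axis) of each tested gene of the 9 pathway lists (vertical axis) in -2vs-14 (left) and +1vs-14 (right). Orange diamonds are the 5 members, blue circles the other 88 genes, and filled symbols are called by edgeR. Most filled symbols at +1vs-14 lie right of 0 (25 of the other genes higher and 5 lower), with the malonyl-CoA and fatty acid list holding 8 of them.

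The biopsies hold several cell types, and fewer cells of a type cannot be told apart from less RNA per cell. The tissue carried its defining markers: all 5 tested epithelial markers were present, with a summed level of 1631 to 1949 CPM at 14 d prepartum and 2112 to 2723 CPM at 1 d postpartum, of which EPCAM was called higher in +1vs-14 and KRT18 lower in -2vs-14. All 8 tested milk genes were called higher in +1vs-14. Their summed level was 145155, 213130 and 91793 CPM in sows 1, 2 and 3 at 2 d prepartum and 523766, 105737 and 150653 CPM at 1 d postpartum. At each of these times the sows came in the same order for GK. Over the 15 libraries r with the log2 of this sum was 0.92 for GK, 0.89 for GPAT4, 0.69 for DGKA, 0.32 for ACACB and 0.08 for SGMS1, and for deviations from time point means it was 0.95, 0.73, -0.43, -0.55 and 0.58. With the epithelial sum r was 0.92, 0.83, 0.55, 0.22 and 0.02 in the same order. For deviations it was 0.83, 0.59, -0.09, -0.50 and 0.72.

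Markers of other cells moved in both directions. The summed level of 4 fibroblast genes lay between 3033 and 5987 CPM at the baseline and between 1708 and 2979 CPM at 1 d postpartum, with LUM called lower. That of 5 lymphocyte genes lay between 49.0 and 55.3 CPM and then between 38.9 and 47.1 CPM, with PTPRC called lower. Neither of the 2 tested endothelial genes was called (355 to 388 CPM at the baseline, 336 to 447 CPM postpartum). Of 5 genes listed for fat cells, the sum lay between 40.9 and 54.0 CPM at the baseline and between 95.0 and 168 CPM at 1 d postpartum, where CIDEA (6.69) and PNPLA2 (0.84) were called higher and PLIN1 lower (-2.07 on the log2 scale) and the defining markers ADIPOQ and LEP were not among the named genes. PNPLA2 is also on the triacylglycerol breakdown list. In sows 1, 2 and 3 it gave 39.2, 36.5 and 29.7 CPM of the sum at the baseline and 41.9, 71.6 and 75.0 CPM postpartum. ACTA1, the 1 muscle gene named, read 1.47, 1.43 and 1.504 CPM at the baseline and 8.0, 10.9 and 23.1 CPM at 1 d postpartum. It was called higher in +1vs-14 (3.27) and in +1vs-2 (2.71). Over the 15 libraries its r was 0.82 with ACACB, 0.77 with GPAT4, 0.65 with DGKA, 0.57 with GK and -0.45 with SGMS1. For deviations from time point means these were 0.53, -0.20, -0.13, -0.13 and 0.11. In the order GK, GPAT4, DGKA, ACACB and SGMS1, r over the 15 libraries was 0.72, 0.87, 0.55, 0.64 and -0.47 with the fat cell sum. With the fibroblast sum it was -0.59, -0.81, -0.67, -0.51 and -0.03. With the lymphocyte sum it was -0.64, -0.68, -0.48, -0.31 and 0.20, and with the endothelial sum 0.24, 0.02, 0.09, -0.49 and 0.72. The part of the shifts in cell markers in the levels of the 5 enzymes was not tested.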

How the data were processed

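Messenger RNA of 15 mammary biopsies was measured, 3 libraries at each of 5 time points. The authors trimmed adaptors from the single-end reads, aligned them with STAR 2.5.1b to Sscrofa10.2 and deposited raw counts per Ensembl gene from featureCounts (Subread 1.5.0, reverse-stranded, exons), without normalization. The headers name an Ensembl annotation, the Methods a RefSeq annotation. ACACB was named by the gene list of the study and GK by its text, the other members by a reference table of gene names, and 12097 of 25322 IDs had a name.

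From the counts, genes reaching 1 CPM in 3 or more libraries were tested with edgeR 4.0.16 (R 4.3.3): TMM, glmQLFit and glmQLFTest, 15 libraries in 1 model with time as the factor, Benjamini-Hochberg over all tested genes. The SE is the absolute log2 fold change divided by the square root of F. Log2 CPM used a prior count of 2. Alternatives used limma 3.58.1 and DESeq2 1.42.0. The edgeR, DESeq2 and limma-voom fits were also run on simulated counts, for +1vs-14 only. Those counts held neither a sow effect nor the composition shift of the libraries, and the edgeR fit with the sow block was not simulated.

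The 15 total counts were between 10782343 and 19952918. Libraries of a time point differed in at least 16072 genes. The sow was joined from the read table of the study by exact total count. Deviations from time point means correlated across genes with a mean r of 0.396 in the 30 pairs of the same sow (lowest 0.103) and -0.198 in the 60 other pairs, so libraries were taken as paired by sow in alternatives. Since 3 sows gave all libraries, p-values speak for these animals.

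The members and lists were chosen with earlier results of these data known. Named genes are the members, the list genes called in any comparison and the 3 named genes most correlated with each member. Genes of the marker lists are given with their sums, and further relatives of the members are named as not called.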

Additional observations from a re-analysis of the deposited data

How the results depend on the processing

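The 8 member results that were called kept their direction in all 144 alternative fits and their call in 122 of them, and 22 fell under the threshold. The 27 results not called gave 454 unchanged outcomes in 486 fits, 13 became calls and 19 turned direction. In -2vs-14, 1 member was called (GPAT4), against 3 (DGKA, GPAT4, SGMS1) with DESeq2, with limma-voom fitted with a random effect of sow and with the sow as a replicate block, 2 (GK, GPAT4) with only the 6 libraries of the comparison and 0 with the RNA integrity number as a covariate; leaving out 1 library gave 0 to 1. In +1vs-14, 4 were called, 0 with the RNA integrity number as a covariate, which was lowest at 14 d prepartum so that both cannot be told apart, and 3 to 4 with 1 library left out. In +1vs-2, 3 were called, 1 (SGMS1) with only 6 libraries and 2 to 4 with 1 library left out. Beside DGKA in -2vs-14 and SGMS1 in -2vs-14 and +1vs-14, the sow block changed no other call of a member. Over all genes, edgeR called 384 in -2vs-14, DESeq2 1083, the sow block 1172, limma-voom with the sow 1106 and the RNA integrity fit 0, and leaving out 1 library gave 37 to 573. The cause of these shifts was not tested.

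Directions turned only among results not called. Without TMM these were GK in -10vs-14 (-0.0038), DGKA in -2vs-6 (-0.11), ACACB in -2vs-14 (-0.32) and -6vs-10 (-0.00015) and SGMS1 in -2vs-6 (-0.18). With the RNA integrity number GK in -10vs-14 was -0.034, and with counts thinned to 10782343 ACACB in -2vs-14 was -0.13. With 1 library left out the lowest and highest values were -0.12 and 0.19 for GK in -10vs-14, -0.066 and 0.33 in -6vs-10 and -0.21 and 0.85 in +1vs-2, -0.0055 and 0.12 for GPAT4 in -10vs-14, -0.12 and 0.32 for ACACB in -2vs-14 and -0.16 and 0.39 in -6vs-10, and -0.26 and 0.0046 for SGMS1 in -10vs-14 and -0.13 and 0.13 in -2vs-6.

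Precision was limited by 3 libraries a time point, by 25 to 218 reads on ACACB and by the low depth of the libraries at 1 d postpartum.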
